A study of Mus musculus with 9 samples.

Results

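The stress axis and glucocorticoid response genes Crh, Crhr1, Crhr2, Crhbp, Nr3c1, Nr3c2, Fkbp5, Sgk1, Tsc22d3 and Hsd11b1 were examined in hypothalamic RNA of mice with and without Clic1. They were chosen by gene symbol, and all 10 were found among the 14351 protein-coding genes of the expression table. The study used whole-body Clic1 KO mice and WT littermates, and sequenced the hypothalamus to explore how Clic1 bears on energy balance. There were 5 KO libraries (replicates 2, 4, 6, 8 and 10) and 4 WT libraries (replicates 1, 3, 9 and 11), from male mice on normal chow. The study describes a CD-1 background, whereas the labels give C57b/6J as the strain, and the age of the sequenced mice is not given in the sources used here. Loss of Clic1 in the hypothalamus and in other organs cannot be told apart in this model. No label states that the libraries came from separate mice, so p-values measure only the spread between these libraries, which may be technical. Replicate 10 of the KO group is named as KO by its column and description, but as WT by its title and treatment label. It was placed with the KO libraries, and results that rest on it are also given without it. Values are listed in the order of the replicates given here.

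Corticotropin-releasing hormone (CRH), made in the paraventricular nucleus, acts together with vasopressin on the pituitary, which releases corticotropin and so drives the adrenal gland to secrete glucocorticoids. Glucocorticoids reach the brain, bind the glucocorticoid receptor (Nr3c1) and the mineralocorticoid receptor (Nr3c2), switch on targets such as Fkbp5, Sgk1 and Tsc22d3, and restrain Crh. In the hypothalamus CRH curbs feeding, while glucocorticoids promote it.

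Both receptors bind DNA at an inverted repeat, the glucocorticoid response element. RefSeq promoter windows on GRCm38.p6, from 250 bases before to 50 bases after each annotated start, were matched for 8 of the 10 genes (15 windows, of which 6 belong to Sgk1 and 3 to Tsc22d3). Crh and Nr3c1 had no entry. Both strands were searched for the full repeat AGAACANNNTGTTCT, for the relaxed repeat GNACANNNTGTNC, which the full one contains, and for its half-site AGAACA, which also lies within the full one. The full repeat occurred in 1 of the 15 windows and in 3 of all 32851 windows (0.00913%). The relaxed repeat occurred in the same window and in 0.475% of all windows. The half-site occurred in 4 of the 15 windows and in 19% of all windows. Of the 3 Tsc22d3 windows only 1 holds it, and the other windows with it belong to Sgk1. A window of Sgk1 (chr10:21993640-21993939, plus strand) is shown because it holds the full repeat. The Tsc22d3 window with the half-site (chrX:140600473-140600772, minus strand) is shown because this gene had the smallest p of the 10. Both run 5′ to 3′, and capitals mark the full repeat in Sgk1 and the half-site, on the opposite strand, in Tsc22d3.
Sgk1: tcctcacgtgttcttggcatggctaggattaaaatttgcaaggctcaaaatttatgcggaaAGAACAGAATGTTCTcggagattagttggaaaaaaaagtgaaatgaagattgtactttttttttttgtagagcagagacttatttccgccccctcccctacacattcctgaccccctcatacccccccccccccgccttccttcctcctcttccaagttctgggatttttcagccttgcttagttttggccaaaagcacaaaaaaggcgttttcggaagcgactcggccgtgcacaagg
Tsc22d3: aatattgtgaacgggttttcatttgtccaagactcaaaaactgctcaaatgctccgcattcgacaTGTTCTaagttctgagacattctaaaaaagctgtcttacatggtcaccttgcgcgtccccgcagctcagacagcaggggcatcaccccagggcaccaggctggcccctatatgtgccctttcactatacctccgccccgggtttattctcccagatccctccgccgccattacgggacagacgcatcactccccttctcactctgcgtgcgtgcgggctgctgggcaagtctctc
The Sgk1 repeat begins 189 bases before the start and the Tsc22d3 half-site 185 bases before it. These are matches of letters, and receptor binding was not measured.

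Levels are normalized CPM, the authors' read counts scaled to library size. Library totals, estimated from the steps between low CPM values, were 5.46 to 20.8 M reads for KO and 7.29 to 11 M reads for WT. Clic1 itself averaged 1.33 ± 0.429 CPM (SD) over 5 KO libraries and 4.76 ± 0.868 CPM (SD) over 4 WT libraries, with no overlap. In replicate 10, whose labels conflict, Clic1 was 1.43 CPM, within the range of the other KO libraries (0.733 to 1.93 CPM) and below that of the WT libraries (3.58 to 5.52 CPM). KO replicate 10 was the deepest library and stood apart, since its median Spearman correlation with the others was 0.974, against at least 0.99 for each of the rest. All 15 hypothalamic markers were measured. A protocol label names perigonadal adipose tissue, yet of 8 adipose markers only Lpl was among the genes analysed, and it was at most 5.7 CPM in any library. The groups were compared with limma on log2(CPM + 0.1), with Benjamini-Hochberg adjustment over all 14351 genes, beside a two-sided exact permutation test over libraries, whose smallest possible p is 0.0159. In whole tissue, fewer cells of a type and less RNA per cell cannot be told apart.

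None of the 10 genes passed an adjusted p of 0.05 in limma, where 0.286% of all genes did (0.139% higher and 0.146% lower in KO). At an unadjusted p of 0.05, 1 of the 10 passed (Tsc22d3, higher), against 6.5% of all genes (3.44% higher and 3.07% lower). KO and WT libraries did not overlap for 2 of the 10, against 3.41% of all genes: Tsc22d3 was higher in KO (1.67% of all genes) and Crhr1 was lower (1.74%). Without KO replicate 10 these counts were 0 (0.606% of all genes), 1 (10.5%) and 2 (6.06%). With limma-voom on estimated reads, 0 of the 10 passed the adjusted threshold, against 36 of all 14351 genes. There 3 of the 10 passed the unadjusted threshold, and the share of all genes in that fit is not given here. With sample weights Tsc22d3 passed the adjusted threshold, where 135 of all genes did, against 41 with equal weights. The median log2 fold change was 0.046 over the 10 genes and 0.00089 over all genes, with 6 of the 10 above 0 and 4 below.

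**Figure D1:**
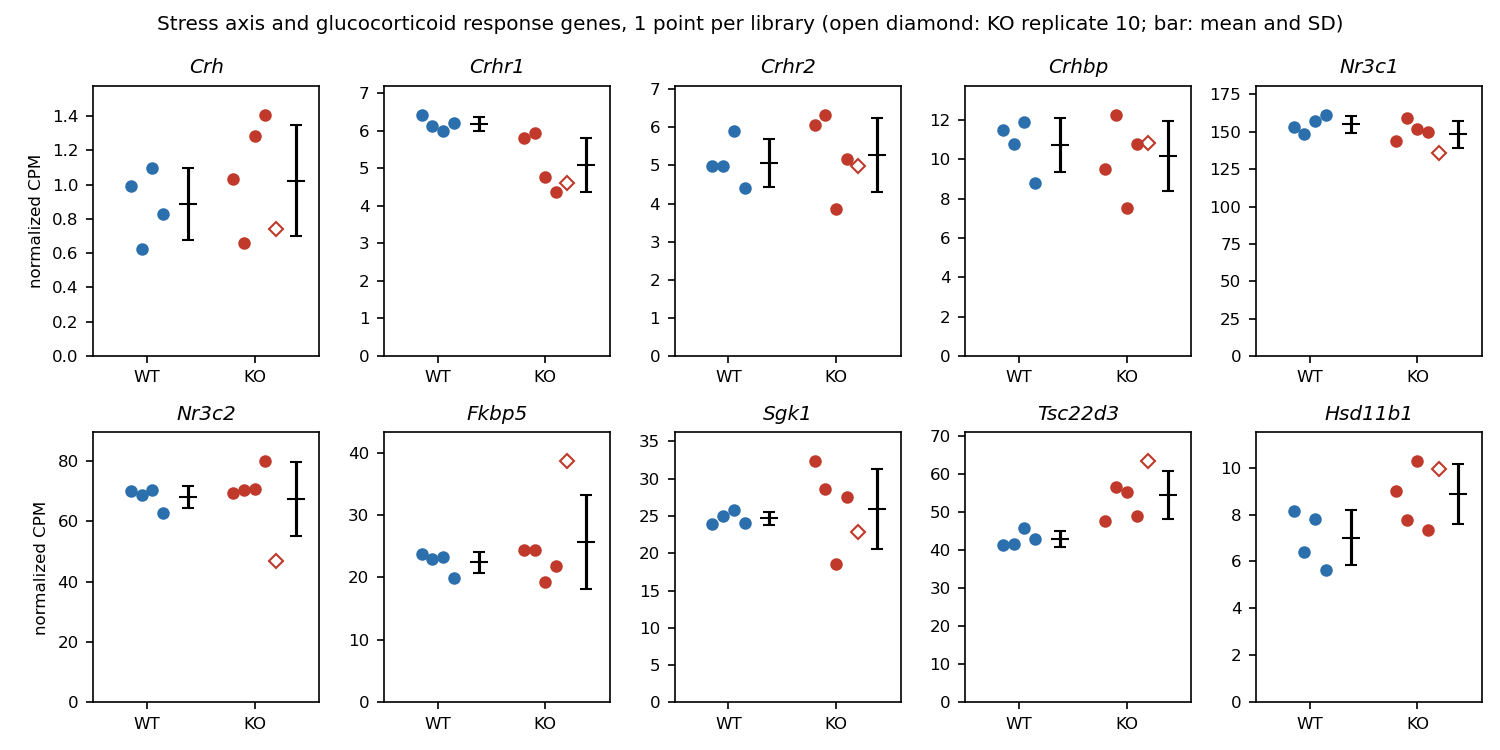
Normalized CPM of the 10 genes (y axis, from 0, with its own scale in each panel) in every WT (blue) and KO (red) library, with mean and SD as bars and KO replicate 10 as an open diamond. All 5 KO libraries lie above the WT libraries in Tsc22d3 (47.5 CPM and more, against at most 45.7 CPM) and below them in Crhr1.

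Per kilobase of merged exons (GENCODE M21), mean levels over all libraries ran from Nr3c1 at 19.7 CPM per kb through Tsc22d3 (11.3), Nr3c2 (10.4), Crhbp (5.8), Sgk1 (5.18), Fkbp5 (2.56), Crhr1 (2.27), Hsd11b1 (1.89) and Crhr2 (1.01) to Crh at 0.729 CPM per kb. Some neighbours changed places between groups. In WT libraries Nr3c2 (10.5 CPM per kb) stood above Tsc22d3 (9.86 CPM per kb), and Crhr1 (2.51 CPM per kb) above Fkbp5 (2.37 CPM per kb). In KO libraries Crhbp and Sgk1 differed by less than the SD of either.

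Crh (ENSMUSG00000049796, GRCm38 chromosome 3, 19693401 to 19695396, minus strand), the releasing hormone itself, was measured from only 5 to 15 estimated reads per library. It was 1.03, 0.659, 1.28, 1.41 and 0.742 CPM in the KO libraries and 0.995, 0.622, 1.1 and 0.827 CPM in the WT libraries. The groups overlapped, and the lowest library was WT and the highest KO. Crh averaged 1.02 ± 0.327 CPM (SD) over 5 KO libraries and 0.886 ± 0.209 CPM (SD) over 4 WT libraries, and its log2 fold change was 0.16 with a standard error of 0.32 (limma adjusted p = 0.943). The 95% confidence interval of the fold, 0.687 to 1.83, shows that a moderate difference was not detectable at this depth.
Vasopressin (Avp), the partner of CRH, was called higher in KO in the same fit (log2 fold change 0.9, limma adjusted p = 0.0027). Avp was also called in each of the 9 fits that left out a library. Without KO replicate 10 its log2 fold change was 0.82 (limma adjusted p = 2.02e-05). With replicate 10 taken as WT it was not called (log2 fold change 0.58, limma adjusted p = 0.687). Avp was already called and Crh rests on few reads, so the next test is not independent of the Avp call. Whether the peptides differed from each other was tested on log2 Avp minus log2 Crh in each library. This difference averaged 7.57 ± 0.548 (SD) over 5 KO libraries and 6.84 ± 0.16 (SD) over 4 WT libraries, a gap of 0.73 (exact permutation p = 0.0317). KO replicate 8, at 6.97, was below WT replicate 3, at 7.06, and the other KO libraries were above all WT libraries. Without KO replicate 10 the gap was 0.56 (exact permutation p = 0.0571, where 0.0286 is the smallest possible), and as each library was left out in turn p ran from 0.0286 to 0.0714, past 0.05 only without KO replicate 8 or WT replicate 3.

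Crhr1 (ENSMUSG00000018634, chromosome 11, 104132855 to 104175523, plus strand) encodes the receptor through which CRH acts on corticotropes and many neurons. It was 5.79, 5.93, 4.76, 4.38 and 4.6 CPM in the KO libraries and 6.42, 6.11, 6 and 6.2 CPM in the WT libraries. Every KO value was below every WT value, by a gap of only 0.0685 CPM, and the WT values were close together. Its log2 fold change was -0.29 with a standard error of 0.14 (limma unadjusted p = 0.0698, adjusted p = 0.788, exact permutation p = 0.0159). Without an intensity trend in the variance the unadjusted limma p was 0.0207, and without KO replicate 10 it was 0.134.
Crhr1 is also a pituitary gene. Of 8 pituitary markers 4 were measured, 3 of them with a log2 fold change below 0, and 2 had an unadjusted p under 0.05 in limma, both lower in KO, against 3.07% of all genes. Their summed level was between 6.79 and 19.5 CPM in KO libraries and between 14.8 and 32 CPM in WT libraries. The measured markers were Cga, Tshb, Lhb and Pitx1, and the defining markers Gh and Prl were not among the genes analysed. Pomc, which is not on this marker list, had a log2 fold change of 0.087 (limma adjusted p = 0.965). The part of the pituitary markers in the Crhr1 result was not tested.

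Crhr2 (ENSMUSG00000003476, chromosome 6), the receptor preferred by the urocortins, was 6.05, 6.33, 3.85, 5.16 and 5 CPM in the KO libraries and 4.97, 4.97, 5.9 and 4.41 CPM in the WT libraries. Its log2 fold change was 0.045, with a 95% confidence interval from -0.33 to 0.42 (limma adjusted p = 0.974). Crhbp (ENSMUSG00000021680, chromosome 13) encodes a secreted protein that binds CRH and keeps it from its receptors. It was 9.53, 12.3, 7.51, 10.8 and 10.8 CPM in the KO libraries and 11.5, 10.8, 11.9 and 8.82 CPM in the WT libraries. Its log2 fold change was -0.086, with an interval from -0.42 to 0.25 (limma adjusted p = 0.935). The groups overlapped in both genes, and KO replicate 6 was the lowest library in each.

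Nr3c1 (ENSMUSG00000024431, chromosome 18), the glucocorticoid receptor, had the smallest standard error of the 10 genes. It was 144, 159, 152, 150 and 136 CPM in the KO libraries and 153, 148, 157 and 161 CPM in the WT libraries. KO replicates 2 and 10 lay below the WT range and the others within it. The log2 fold change was -0.066 with a standard error of 0.062 (limma adjusted p = 0.88), and the interval of the fold was 0.869 to 1.05.
Nr3c2 (ENSMUSG00000031618, chromosome 8), the mineralocorticoid receptor, was 69.4, 70.2, 70.5, 79.8 and 46.7 CPM in the KO libraries and 69.9, 68.8, 70.2 and 62.5 CPM in the WT libraries. KO replicate 10 was the lowest library and KO replicate 8 the highest. The log2 fold change was -0.032 (limma adjusted p = 0.974), and without KO replicate 10 it was 0.094 (limma adjusted p = 0.656). The log2 ratio of Nr3c2 to Nr3c1 averaged -1.16 ± 0.236 (SD) over 5 KO libraries and -1.19 ± 0.119 (SD) over 4 WT libraries (exact permutation p = 0.778).

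Hsd11b1 (ENSMUSG00000016194, chromosome 1, 193221634 to 193264075, minus strand) encodes the enzyme that regenerates active glucocorticoid inside cells. It was 9.02, 7.78, 10.3, 7.35 and 9.94 CPM in the KO libraries and 8.14, 6.42, 7.8 and 5.65 CPM in the WT libraries. KO replicates 2, 6 and 10 were above all WT libraries, and KO replicates 4 and 8 were within their range. The log2 fold change of 0.34 had a standard error of 0.16 and a 95% confidence interval from -0.00026 to 0.68 (limma unadjusted p = 0.0501, adjusted p = 0.767, exact permutation p = 0.0952). As each library was left out in turn, the unadjusted limma p ran from 0.0283 to 0.16.

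**Figure D2:**
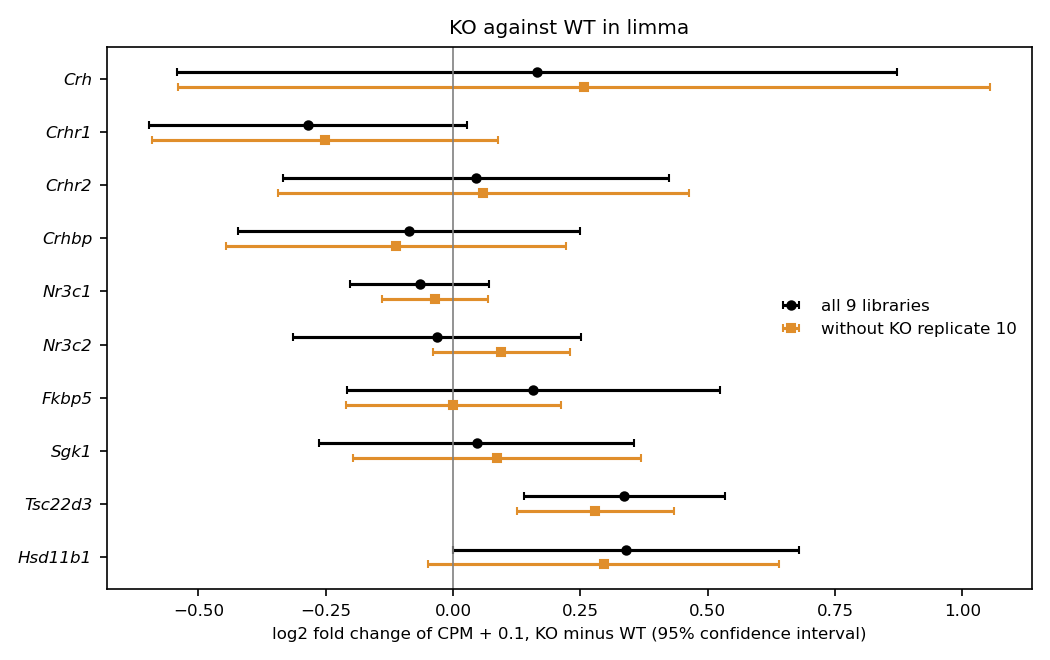
Log2 fold change of CPM + 0.1, KO minus WT (x axis), of the 10 genes (y axis), with 95% confidence intervals from limma on all 9 libraries (black) and without KO replicate 10 (orange). Only the intervals of Tsc22d3 leave out 0 in these fits, and Fkbp5 moves from 0.16 to 0.00031 without that library.

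Tsc22d3 (ENSMUSG00000031431, chromosome X, 140539528 to 140600659, minus strand) encodes GILZ, a glucocorticoid-induced leucine zipper protein that restrains inflammatory transcription factors. It was 47.5, 56.5, 55.3, 48.9 and 63.2 CPM in the KO libraries and 41.2, 41.4, 45.7 and 42.8 CPM in the WT libraries. Every KO value was above every WT value, by a gap of 1.82 CPM, and KO replicate 10 was the highest. Tsc22d3 averaged 54.3 ± 6.33 CPM (SD) over 5 KO libraries and 42.8 ± 2.06 CPM (SD) over 4 WT libraries, a fold of 1.26 with a 95% confidence interval from 1.1 to 1.45. The log2 fold change of 0.34 (standard error 0.091) had an unadjusted p of 0.00303 and an adjusted p of 0.363 in limma, which did not pass, and an exact permutation p of 0.0159. Without KO replicate 10 it was 0.28 (limma adjusted p = 0.123), with sample weights 0.3 (limma adjusted p = 0.0459), and with replicate 10 taken as WT 0.17 (limma adjusted p = 0.794).
Other cell types express Tsc22d3 too. Of 7 endothelial markers, all measured, 6 had a log2 fold change above 0 and 1 had an unadjusted limma p under 0.05 (higher in KO, against 3.44% of all genes), and their sum was between 204 and 231 CPM in KO libraries and between 189 and 206 CPM in WT libraries. Of 8 oligodendrocyte markers, all measured, 1 was above 0 and 1 had an unadjusted limma p under 0.05 (lower in KO, against 3.07% of all genes). Their sum was between 3558 and 4047 CPM in KO libraries and between 3797 and 4662 CPM in WT libraries. KO replicate 10 was the lowest, at 3558 CPM, and the KO range without it is not given here. The part of these markers in the Tsc22d3 result was not tested.

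Fkbp5 (ENSMUSG00000024222, chromosome 17, 28399094 to 28517527, minus strand) encodes FKBP51, a co-chaperone that lowers the hormone affinity of the glucocorticoid receptor, and lies 6.53 Mb from Clic1. It was 24.3, 24.4, 19.2, 21.9 and 38.6 CPM in the KO libraries and 23.7, 22.9, 23.2 and 19.8 CPM in the WT libraries. KO replicate 10 alone was high, and the other 8 libraries lay between 19.2 and 24.4 CPM. The log2 fold change was 0.16 with a standard error of 0.17 (limma adjusted p = 0.884). Without KO replicate 10 it was 0.00031, with a 95% confidence interval from -0.21 to 0.21.

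Sgk1 (ENSMUSG00000019970, chromosome 10, 21882184 to 21999903, plus strand) encodes a kinase that acts on ion channels and transporters, and is the gene whose window holds the full repeat. It was 32.3, 28.6, 18.5, 27.5 and 22.8 CPM in the KO libraries and 23.9, 25, 25.8 and 24.1 CPM in the WT libraries. The KO libraries lay on both sides of the WT libraries, 3 above and 2 below, and the WT values were close together. Sgk1 averaged 25.9 ± 5.38 CPM (SD) over 5 KO libraries and 24.7 ± 0.878 CPM (SD) over 4 WT libraries, with a log2 fold change of 0.046 and a standard error of 0.14 (limma adjusted p = 0.965).

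By the SD in CPM, KO libraries were more widely spread than WT libraries in each of the 10 genes. Relative to its mean, Hsd11b1 was less widely spread in KO (SD 14.5% of the mean) than in WT (16.7%). The SD in CPM was larger in KO for 10 of the 10, against 72.7% of all genes, and without KO replicate 10 it was larger for 10 of the 10, against 48.6% of all genes. As each library was left out the count was 9 or 10. The share of all genes was 70.3% to 78.1% when a library other than KO replicate 10 was left out. On the log2 scale the count was 9, against 72.6% of all genes. No test was made of this, since the genes share the same 9 libraries, and KO libraries other than replicate 10 were shallower (5.46 to 7.71 M reads) than most WT libraries. KO replicate 6, the shallowest library, was the lowest of all in Crhr2, Crhbp, Fkbp5 and Sgk1, and the highest of all in Hsd11b1 (10.3 CPM). The part of depth in the spread was not tested.

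Among Fkbp5, Sgk1, Tsc22d3 and Crh, 6 correlations over the 9 libraries were computed, and none passed after Benjamini-Hochberg adjustment of the exact permutation p-values. For Fkbp5 and Tsc22d3 the Pearson r was 0.552 (exact permutation p = 0.153, adjusted 0.916) and the Spearman rho 0.333 (exact permutation p = 0.385, adjusted 0.873). Leaving out KO replicates 6 and 10, the farthest from the median of Fkbp5, gave r = 0.381, and leaving out KO replicate 10 alone gave r = -0.115. For Fkbp5 and Sgk1 r was 0.106 (exact permutation p = 0.764, adjusted 0.916) and rho 0.3 (exact permutation p = 0.437, adjusted 0.873), and r was 0.528 without KO replicates 6 and 10. Without KO replicate 10, r was 0.77 (exact permutation p = 0.0233, adjusted 0.14) and rho 0.667 (exact permutation p = 0.0831, adjusted 0.499), and r was 0.392 when KO replicate 6 and WT replicate 11 were left out as well.

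**Figure D3:**
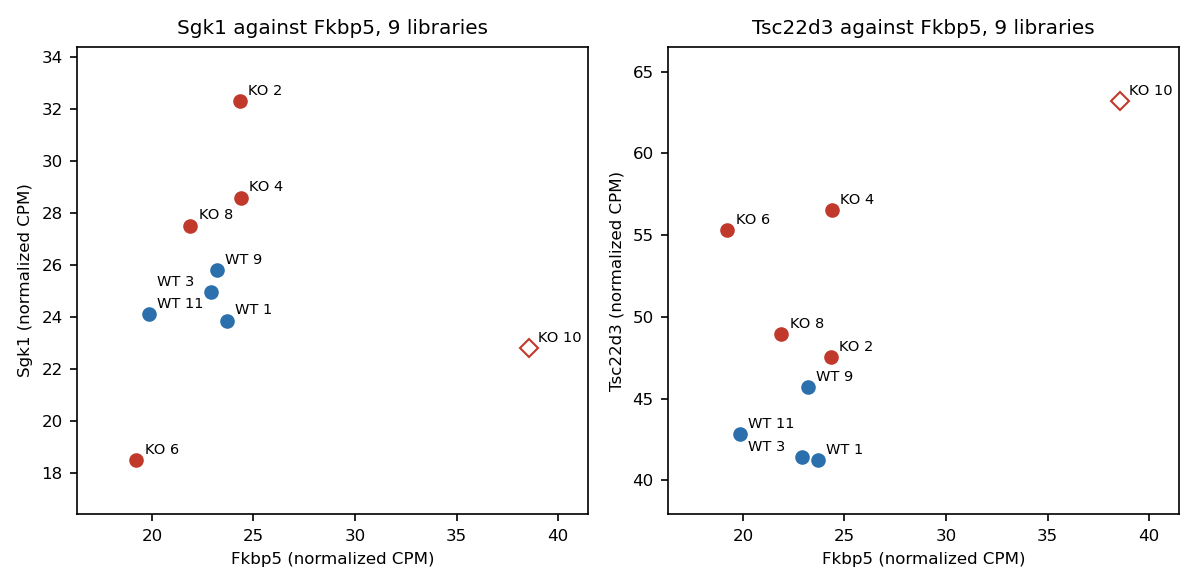
Normalized CPM of Sgk1 (left, y axis) and Tsc22d3 (right, y axis) against Fkbp5 (x axis) in WT (blue) and KO (red) libraries, each named by its group and replicate. KO replicate 10 lies apart at 38.6 CPM of Fkbp5, with the highest Tsc22d3 and a Sgk1 of 22.8 CPM, below the WT libraries.

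The genes most like Crh and Fkbp5 were sought among 12072 genes whose mean reached 5 CPM, by Pearson r of log2(CPM + 0.1) over the 9 libraries after group means were subtracted. For Crh they were 1700123O20Rik (r = 0.974), Tigd5 (r = 0.942), Arv1 (r = 0.936), Cdc42ep2 (r = 0.918) and Ermard (r = 0.912). For Fkbp5 they were Srp54a (r = 0.982), Aven (r = 0.981), Idh2 (r = 0.975), Osbp (r = 0.974) and Smu1 (r = 0.973), and without KO replicate 10 these 5 fell to between 0.858 and 0.932. The libraries are few and the genes many, so these values are given as a description.

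Further genes of the axis were taken from 5 lists, and Avp was the only one of them past the adjusted threshold. Of 21 other genes of CRH and stress axis signalling 15 were measured, with a median log2 fold change of 0.016. In limma 1 was called higher (Avp) and 0 lower, against 0.139% and 0.146% of all genes. The study had reported higher Avp, and the lists were chosen with earlier results known. The Avp call is therefore no result about its list. All 11 chaperones and immunophilins of the steroid receptor complex and all 11 coregulators were measured. In limma 0 of either passed an adjusted or an unadjusted p of 0.05, where 0.286% and 6.5% of all genes did. Hsp90ab1, the chaperone that holds the receptor ready for hormone, had the smallest p of the chaperones (log2 fold change -0.15, limma unadjusted p = 0.119). Med14, a Mediator subunit, had the smallest p of the coregulators (log2 fold change -0.16, limma unadjusted p = 0.0908).

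Of 28 other glucocorticoid-induced genes 27 were measured, and in limma 0 passed the adjusted threshold, while at an unadjusted p of 0.05 there was 1 higher and 3 lower in KO, against 3.44% and 3.07% of all genes. Their median log2 fold change was -0.031, with 11 above 0 and 16 below. KO and WT libraries did not overlap for 2 of the 27 (Zbtb16 and Angptl4), against 3.41% of all genes. Zbtb16, a zinc-finger repressor, was 25.9, 23.3, 25.3, 28.8 and 25.1 CPM in the KO libraries and 19.5, 20.5, 18.7 and 22.4 CPM in the WT libraries. Its groups did not overlap, and the log2 fold change of 0.34 (standard error 0.092, limma adjusted p = 0.378) was 0.34 without KO replicate 10 too (limma adjusted p = 0.143).
Angptl4, a secreted inhibitor of lipoprotein lipase, was 3.09, 2.77, 3.48, 2.03 and 3.36 CPM in the KO libraries and 5.52, 4.77, 7.4 and 4.82 CPM in the WT libraries. Every KO value was below every WT value. The log2 fold change of -0.91 (standard error 0.21) had an adjusted p of 0.181 in limma, and 0.0252 with sample weights.
Mt1 and Mt2 encode metal-binding metallothioneins. Mt1 was 197, 194, 205, 203 and 256 CPM in the KO libraries and 242, 223, 286 and 234 CPM in the WT libraries, so that KO replicate 10 alone of the KO libraries reached the WT range. Its log2 fold change was -0.22 (limma adjusted p = 0.745), -0.3 without KO replicate 10 (limma adjusted p = 0.058) and -0.27 with sample weights (limma adjusted p = 0.0398). Mt2 had a log2 fold change of -0.48 (limma adjusted p = 0.657). KO replicate 10 was its lowest library at 41.9 CPM, and without it the log2 fold change was -0.32 (limma adjusted p = 0.249). Per1, Klf9 and Dusp1, which respond early to the hormone, had log2 fold changes of -0.075, -0.031 and -0.24 (limma adjusted p = 0.929, 0.956 and 0.847).

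**Figure D4:**
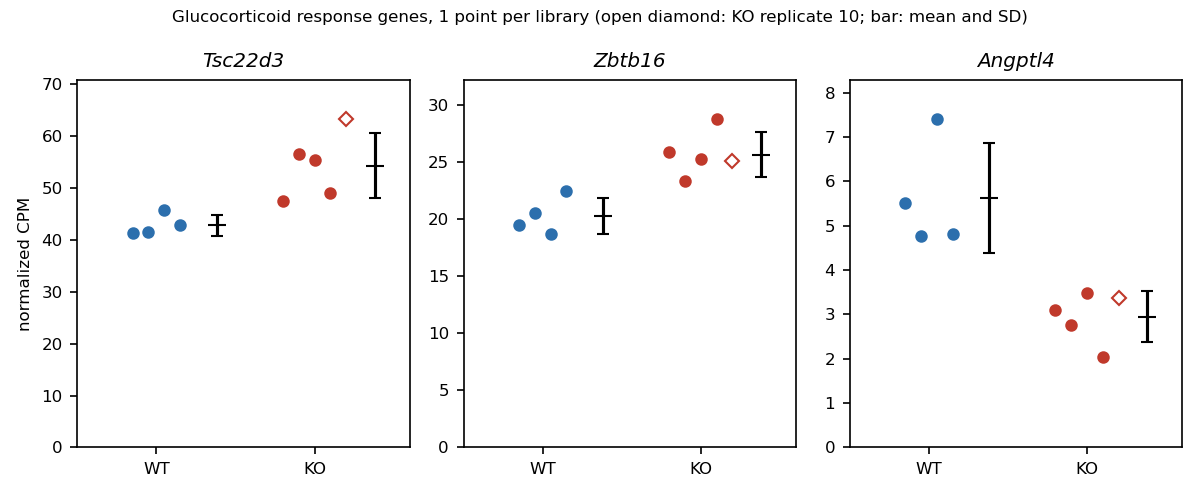
Normalized CPM (y axis, from 0) of Tsc22d3, Zbtb16 and Angptl4 in every WT (blue) and KO (red) library, with mean and SD as bars and KO replicate 10 as an open diamond. Among Fkbp5, Sgk1, Tsc22d3 and the 27 other glucocorticoid-induced genes measured, the 3 shown are those whose groups do not overlap. The groups did not overlap for 3.41% of all genes. Crhr1, Avp and Clic1 did not overlap either and are not shown here. KO libraries lie above WT libraries in Tsc22d3 and Zbtb16 and below them in Angptl4, and none of the 3 passed the adjusted threshold with all libraries weighted equally.

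Of 12 enzymes and transporters that handle glucocorticoids 8 were measured, with 0 past the adjusted threshold in limma and, at an unadjusted p of 0.05, 1 higher and 1 lower, against 3.44% and 3.07% of all genes. Srd5a1, a steroid reductase, averaged 3.99 ± 0.663 CPM (SD) over 5 KO libraries and 6.17 ± 1.24 CPM (SD) over 4 WT libraries, and the ranges overlapped (log2 fold change -0.61, limma adjusted p = 0.493). Abcb1a, an exporter of the blood-brain barrier that limits entry of corticosteroids, averaged 32.4 ± 6 CPM (SD) over 5 KO libraries and 26.2 ± 1.07 CPM (SD) over 4 WT libraries (log2 fold change 0.29, limma adjusted p = 0.743). KO replicate 10 was its highest library at 41.5 CPM, and without it the log2 fold change was 0.195 (limma adjusted p = 0.467). Abcb1a is expressed in endothelium, whose marker sums are given beside Tsc22d3, and their part in its value was not tested.

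**Figure D5:**
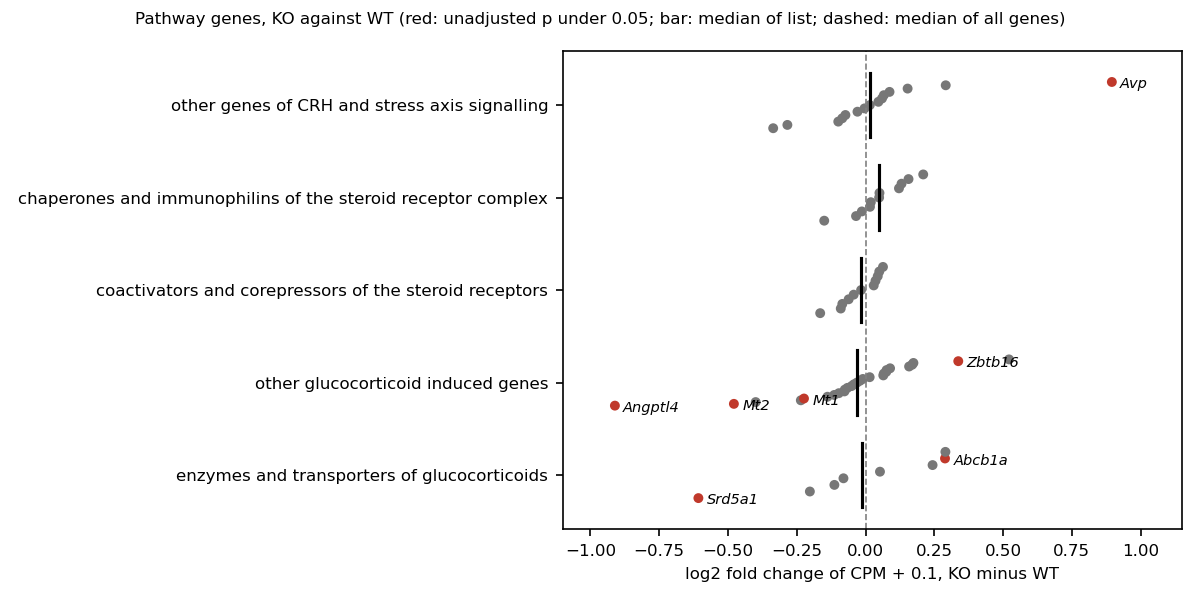
Log2 fold change of CPM + 0.1, KO minus WT (x axis), of each measured gene of the 5 lists (y axis), red where the unadjusted p was under 0.05, with list medians as bars and the median of all genes dashed. List medians lie between -0.031 and 0.049, and Avp, at 0.9, is the only gene past the adjusted threshold.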

How the data were processed

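RNA of the hypothalamus was sequenced in 5 KO and 4 WT libraries. Per the labels and methods, reads were processed by the authors with FastQC 0.11.8, Trimmomatic 0.38, STAR 2.5.1a (GRCm38.p6) and RSEM 1.3.0. Genes had to reach a CPM of 1 in 5 samples, and TMM scaling was applied. The deposited signal is this normalized CPM, so limma 3.58.1 in R 4.3.3 (eBayes with a trend, condition only) was run on log2(CPM + 0.1) in place of voom on counts. Estimated reads are approximate, because 81% to 86.2% of low values lay within 0.03 reads of a whole number. Gene symbols came from the deposited table of the authors' comparison, whose fold changes and p-values were not used. A further column (1) matched no sample and was not used.

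Genes and lists were chosen with earlier results of these data known. Named genes were the 10 members, Clic1, Avp, list genes with an unadjusted p under 0.05 or the smallest p of their list, and the 5 genes most like Crh and Fkbp5. Per1, Klf9 and Dusp1 were named after their values were seen. Positions are from GENCODE M21, which may differ from the annotation the authors counted on. Whether counting used strand is not given in the sources used here. The fit was also run on simulated data, with the same dispersion for every gene and no outlying library. That run does not cover a library such as KO replicate 10, and its result is not given here. Exact permutation tests enumerated all 126 groupings. Alternatives tried were pseudocounts of 1 and 0.01, a minimum mean CPM of 5, further scalings, no trend, sample weights, limma-voom, replicate 10 as WT and leaving out each library.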

Additional observations from a re-analysis of the deposited data

Results flagged for a closer look

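Single libraries lay far from the rest of their group in 3 of the 36 sets of values examined. Independent sets would give about 1 in 20, or 1.8. These sets share the same 9 libraries, so the count cannot be weighed against that number. KO replicate 10 was the library each time. Fkbp5 read 38.6 CPM there, and the remaining KO libraries 19.2 to 24.4 CPM. Avp read 255 CPM, and the remaining KO libraries 189 to 199.8 CPM. Mt1 read 256 CPM, and the remaining KO libraries 194 to 205 CPM. KO replicate 10 was the highest or lowest of all 9 libraries in 4 of the 10 stress axis genes, and KO replicate 6 in 5 of them. The share over all genes is not given here, so these counts are a description.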

How the results depend on the processing

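No paired analysis was possible because KO and WT libraries share no replicate number. Of 189 alternative values for the 10 genes, 178 stayed on the same side of 0 and of the adjusted threshold, 1 passed it and 10 changed sign. The 41 genes past the threshold over the whole table became 27 when a mean of 5 CPM was required, 135 under sample weights and 5 when replicate 10 was taken as WT, and 18 to 87 as each library was left out. Under sample weights 1 of the 10 genes (Tsc22d3) passed. The number past an unadjusted p of 0.05 was 2 with a pseudocount of 0.01, 3 without a trend, 3 with limma-voom, 0 with replicate 10 as WT, and 1 to 3 as each library was left out. Over all genes the share past it was 6.5% in the main fit and 10.5% without KO replicate 10. That share is not given for the other settings, so these counts do not measure a change particular to the 10 genes. With replicate 10 as WT the log2 fold change of Nr3c1 was 0.0022, of Nr3c2 0.20 and of Fkbp5 -0.16, and under sample weights that of Nr3c2 was 0.076. As each library was left out, Crhr2 ran from -0.024 to 0.15, Crhbp from -0.18 to 0.018, Nr3c2 from -0.099 to 0.094 and Sgk1 from -0.040 to 0.16. Avp minus Crh was 0.28 with replicate 10 as WT (exact permutation p = 0.444) and 0.56 to 0.88 as each library was left out, and Nr3c2 minus Nr3c1 ran from -0.028 to 0.13. Without KO replicate 10 the correlation of Fkbp5 and Tsc22d3 was -0.12 and that of Tsc22d3 and Crh 0.22. Crh was lost to the filter, and the causes of the other changes were not tested. The comparison of spreads and the counts without KO replicate 10 were chosen after seeing the data. Depth limits Crh most.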

Other observations

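Immediate early genes, which report recent neuronal activity, were all measured. Each of the 8 had a log2 fold change below 0, with a median of -0.35, and 4 had an unadjusted p under 0.05 in limma, all lower in KO (3.07% of all genes), but 0 passed the adjusted threshold. Their summed level was between 90.7 and 146 CPM in KO libraries and between 141 and 158 CPM in WT libraries, and KO replicate 10 was the lowest.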
